A study of Homo sapiens with 42 samples.

Results

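Of the 33914 chromatin loops listed for K562 cells, 5328 (15.7%) joined anchors that lay at least 1 Mb and less than 2 Mb apart. They were chosen by this distance alone, with no minimum of contacts. A loop is a pair of 10 kb stretches of the same chromosome, called anchors, and its length is the distance between the anchors' start positions. The shortest of these loops spanned 1000 kb, the longest 1.99 Mb, and the median was 1340 kb.

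K562 is an established human leukaemia line with erythroid and megakaryocytic features. In situ Hi-C, which joins and sequences DNA ends that lie close together in fixed nuclei, was done on untreated cells (0 h) and on cells kept in 25 nM PMA for 6 h or 72 h. PMA is a phorbol ester that activates protein kinase C and drives these cells towards a megakaryocyte-like state. Each time had 4 biological replicates of the same line, with technical replicates and sequencing runs that were summed here to 12 libraries, so the p-values below measure the spread between these cultures of 1 line. Hi-C counts contacts and not transcripts, so neither the cells' identity nor their differentiation could be checked against marker genes.

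As background, most loops of mammalian chromosomes are thought to form when the cohesin ring reels in chromatin until it meets CTCF bound to DNA in the facing orientation. Long loops need cohesin to travel far or to pass intermediate CTCF sites, and loops between active or Polycomb-bound regions can also form over long distances without CTCF. Contacts between any pair of positions become rarer as the distance between them grows, so long loops are read from few contacts. A pixel's count holds the general contact level at its distance as well as the loop itself, and in this table both parts cannot be told apart.

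The positions are on hg38, and genes were placed in anchors by RefSeq's table of GRCh38.p14. Sequences are shown for promoters whose gene start fell inside an anchor of a loop described below. Loop13465 has gene starts in both anchors, and loop4378 and loop4393 have them in 1 anchor. The sets shown are 4 histone promoters in anchors of loop13465 and 3 HOXD promoters in anchors of loop4378 and loop4393. H3C2 and H2AC4 lie in 1 anchor of loop13465, and H4C12 and H2AC15 in the other. Loop13465 was called lower at 6 h than at 0 h, and loop4378 and loop4393 were called higher at 72 h than at 0 h. Each line gives the 100 bases before the gene start in RefSeq GRCh38.p14, 5′ to 3′ on the gene's strand, with CCAAT or its reverse complement ATTGG and TATAA or its reverse complement TTATA in capitals.
H3C2 (chr6:26032100-26032199, minus strand): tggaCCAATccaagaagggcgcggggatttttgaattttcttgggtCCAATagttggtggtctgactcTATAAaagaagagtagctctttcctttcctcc
H2AC4 (chr6:26033619-26033718, minus strand): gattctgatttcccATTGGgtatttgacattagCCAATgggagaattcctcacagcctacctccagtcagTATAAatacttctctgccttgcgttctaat
H4C12 (chr6:27831561-27831660, minus strand): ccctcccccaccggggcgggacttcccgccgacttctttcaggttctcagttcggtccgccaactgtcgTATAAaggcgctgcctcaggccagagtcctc
H2AC15 (chr6:27838376-27838475, minus strand): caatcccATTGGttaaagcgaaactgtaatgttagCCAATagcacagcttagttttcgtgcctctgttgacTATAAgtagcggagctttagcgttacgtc
HOXD13 (chr2:176092621-176092720, plus strand): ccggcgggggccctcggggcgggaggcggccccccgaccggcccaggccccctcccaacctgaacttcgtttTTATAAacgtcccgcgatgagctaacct
HOXD12 (chr2:176099695-176099794, plus strand): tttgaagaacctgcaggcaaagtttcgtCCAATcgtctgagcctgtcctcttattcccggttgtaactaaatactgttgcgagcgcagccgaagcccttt
HOXD8 (chr2:176129605-176129704, plus strand): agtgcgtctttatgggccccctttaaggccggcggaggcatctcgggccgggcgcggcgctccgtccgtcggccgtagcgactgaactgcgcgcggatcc

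The 4 histone windows shown held TATAA close to the gene start, and all of these but H4C12 held CCAAT on 1 strand or both. The window of H2BC15, a further gene start in the second anchor of loop13465, is not shown and held ATTGG but neither TATAA nor TTATA. Over the 35116 RefSeq promoters, 9.0% held TATAA or TTATA and 18.1% held CCAAT or ATTGG in a window of this length. HOXD13 held TATAA and TTATA as overlapping letters, HOXD12 held CCAAT, and HOXD8 held neither. The CTCF core motif, searched on both strands of the full 300 base windows, was in 0.470% of all promoters, in 1.01% of the 8130 promoters whose start lay in an anchor of any loop, and in 13 of the 851 (1.53%) whose start lay in an anchor of a 1 to 2 Mb loop. It was in 0 of the 15 promoters in anchors of the loops named here. A match is a run of letters and not a measured binding site, and anchors are far wider than these windows.

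The 12 libraries held between 736929 and 1472197 contacts over all loops. Biological replicates 3 and 4 did not differ beyond sampling noise at 0 h (chi-square over loops, p = 0.0591) or at 72 h (p = 0.489), whereas every other pair of replicates within a time differed, including 3 and 4 at 6 h (p = 0.0327). They were therefore counted as 1 sample at 0 h and at 72 h in means, SDs and exact tests, which leaves n = 3, 4 and 3 at 0 h, 6 h and 72 h. The tests of single loops below took all 12 libraries as separate samples, and fits with replicates 3 and 4 summed are given at the end. Replicates 1 and 2 and replicates 3 and 4 were made with different numbers of technical replicates and sequencing runs, and whole-library values are given within each set as well.

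Single loops of this length were thinly covered. The median member had a mean of 4.5 contacts per library (quartiles 3.00 and 7.67, range 0.5 to 154), against 10.9 for the 7932 loops of 0.5 to 1 Mb, 37.5 for the 18286 loops under 0.5 Mb and 2.33 for the 2368 loops of 2 Mb or more. Of the 5328 members, 3575 had at least 1 contact in every library. A minimum of 5 counts per 1000000 on average over the 12 libraries, set for the tests, was reached by 2242 members (42.1%), against 85.8% of loops of 0.5 to 1 Mb. Of those 2242, 1737 would have reached it at 0 h alone and 2148 at 72 h alone, so part of them passed only through the later time, and counts over the tested members describe them without standing for all members. The other 3086 members enter the summed contacts and the fit with no filter.

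Summed over all 5328 members, with no filter, these loops held a larger share of the contacts at each later time. Their share of all loop contacts was 2.59%, 2.88%, 2.56% and 2.75% in replicates 1 to 4 at 0 h. At 6 h it was 3.05%, 3.41%, 3.11% and 2.95%. At 72 h it was 3.69%, 3.96%, 3.82% and 3.83%. The 3 times did not overlap: each 6 h library lay above each 0 h library, and each 72 h library above each 6 h library. The share averaged 2.71% ± 0.15 over untreated samples (SD, n = 3), 3.13% ± 0.20 over the 6 h samples (SD, n = 4) and 3.83% ± 0.14 over the 72 h samples (SD, n = 3). The later means are 1.16 times and 1.41 times the 0 h share.

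The differences in share were 0.42 percentage points at 6 h against 0 h, 1.12 at 72 h against 0 h and 0.70 at 72 h against 6 h, each larger than the SDs. The two-sided exact permutation tests gave p = 0.0571, p = 0.10 and p = 0.0571, which are the smallest values that samples of these numbers allow, and all 6 tests of whole libraries had an adjusted p of 0.114. The order held within both sets of replicates: in replicates 1 and 2 the share went from 2.73% to 3.23% to 3.83%, and in replicates 3 and 4 from 2.65% to 3.03% to 3.82%. A larger share can come with more contacts at these loops or with fewer at the others, and in bulk cells more cells holding a loop and more contact per cell cannot be told apart.

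**Figure D1:**
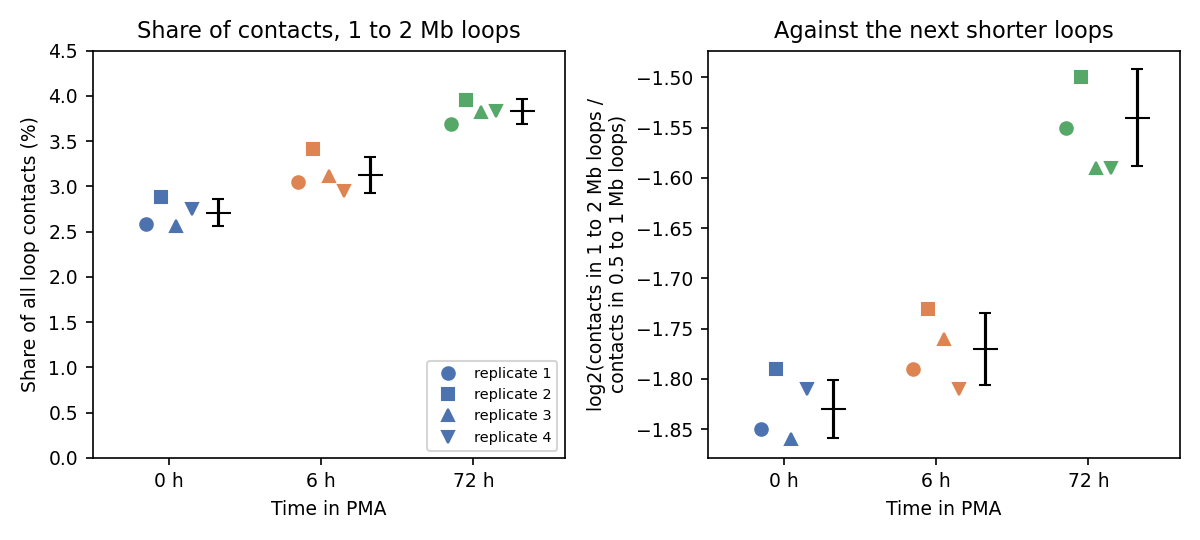
Contacts in loops of 1 to 2 Mb in each of the 12 libraries, as a percent of all loop contacts (left) and as the log2 ratio to the contacts in loops of 0.5 to 1 Mb (right), by time in PMA. Symbols mark replicates, and the black bars give the mean and SD with replicates 3 and 4 counted as 1 sample at 0 h and 72 h. On the left the 4 libraries of each time lie above those of the time before, and on the right only the 72 h libraries, from -1.59 to -1.50, stand clear of the others.

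Set against the loops next in length, the difference came late. The log2 ratio of contacts in 1 to 2 Mb loops to contacts in 0.5 to 1 Mb loops was -1.85, -1.79, -1.86 and -1.81 at 0 h, -1.79, -1.73, -1.76 and -1.81 at 6 h, and -1.55, -1.50, -1.59 and -1.59 at 72 h. The 0 h and 6 h libraries overlapped, and their means differed by 0.05 (1.04 times; exact permutation p = 0.114). The 72 h libraries all lay above the others, with a difference of 0.28 from 0 h (1.22 times; exact permutation p = 0.10, the smallest possible) and of 0.23 from 6 h (1.17 times; exact permutation p = 0.0571, the smallest possible). Loops of 0.5 to 1 Mb went from 9.59% to 10.7% to 11.2% of contacts, which is 1.11 times the 0 h share at 6 h and 1.16 times at 72 h, beside 1.16 and 1.41 times for loops of 1 to 2 Mb. Loops of 2 Mb or more stood at 1.16 and 1.58 times.

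Length also ordered the change among the members. Loops of 1 to 1.25 Mb (2066 loops) held 1.31% of contacts at 0 h and 1.76% at 72 h, a ratio of 1.35. Loops of 1.25 to 1.5 Mb (1400) held 0.690% and 0.973%, a ratio of 1.41. Loops of 1.5 to 2 Mb (1862) held 0.712% and 1.09%, a ratio of 1.54. At 6 h the same classes stood at 1.14, 1.16 and 1.18 times their 0 h share. The gradient with length at 72 h ran on from shorter loops: among tested loops the median log2 fold change was -0.21 under 100 kb, 0.12 at 500 to 750 kb, 0.30 at 1000 to 1250 kb and 0.52 at 1750 to 2000 kb. At 6 h the median lay between 0.08 and 0.13 in every bin from 500 kb on.

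**Figure D2:**
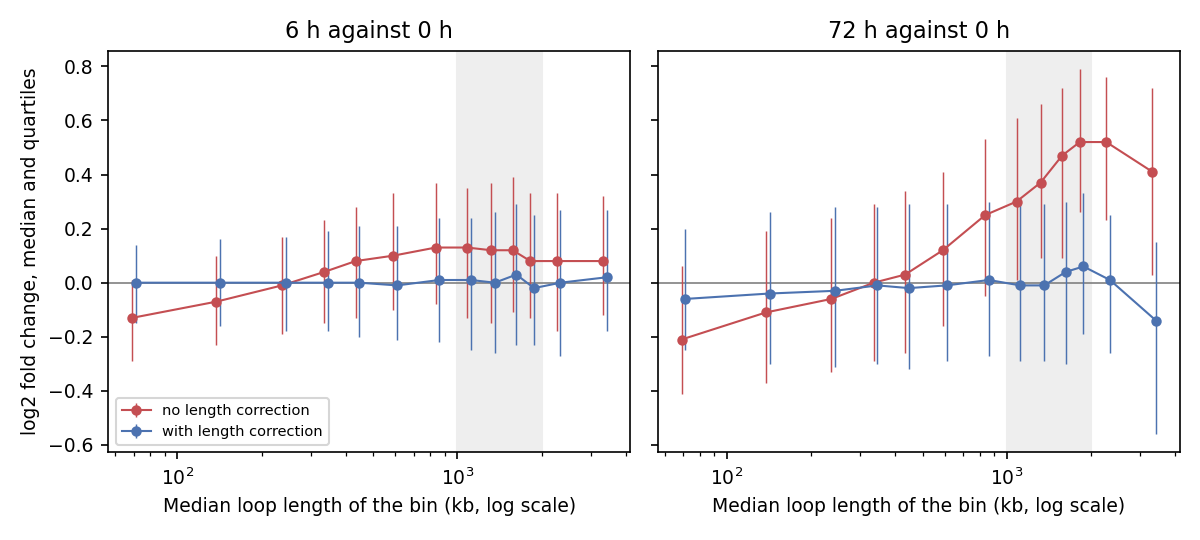
Median log2 fold change of the tested loops by loop length, for 6 h and 72 h against 0 h, without and with a correction for length within each library. Vertical lines span the quartiles of each length bin and the grey band marks 1 to 2 Mb. Without the correction the 72 h medians inside the band go from 0.30 to 0.52, and with it the same bins lie between -0.01 and 0.06.

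The difference between 0 h and 72 h was found on every chromosome with loops. On each chromosome, contacts of its 1 to 2 Mb loops were divided by contacts of its other loops in every library. On all 23 chromosomes every 72 h library lay above every 0 h library. The difference was largest on chromosome 19 (0.72 ± 0.11 on the log2 scale, SD of the difference), which had only 10 such loops, and on chromosome 14 (0.68 ± 0.17, 86 loops). It was smallest on chromosome 21 (0.28 ± 0.13, 46 loops). Chromosomes 4 and 13 were richest in such loops, with 751 (26.3% of the chromosome's loops) and 433 (26.4%), with differences of 0.45 ± 0.13 and 0.46 ± 0.15. Most neighbours in this order differed by less than their SDs.

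**Figure D3:**
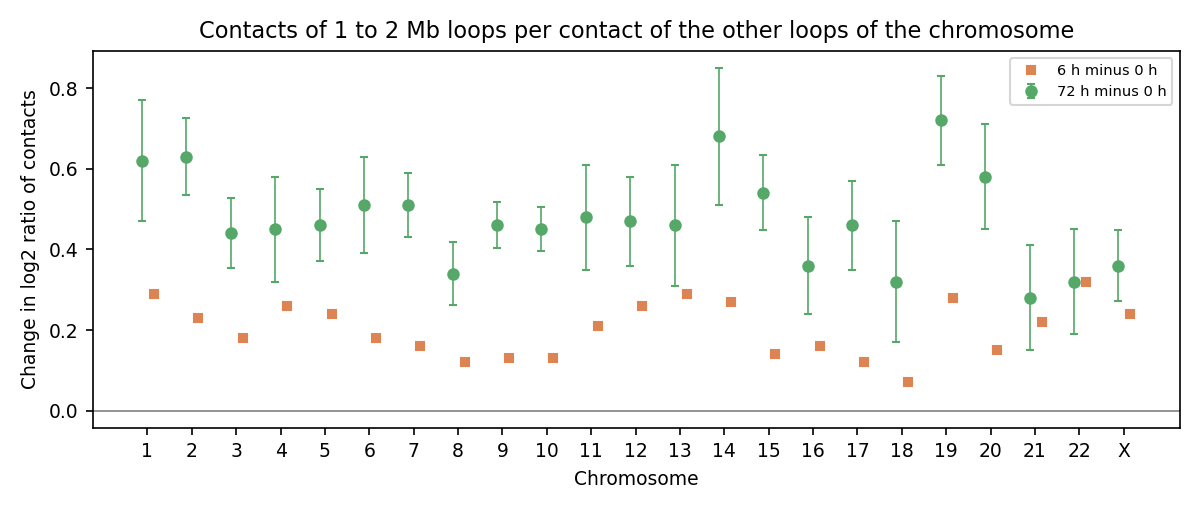
Change in the log2 ratio of contacts in 1 to 2 Mb loops to contacts in the other loops of the same chromosome, for 23 chromosomes. Circles give the mean at 72 h minus the mean at 0 h with the SD of the difference, and squares give the mean at 6 h minus 0 h. All 72 h values lie above 0, from 0.28 on chromosome 21 to 0.72 on chromosome 19.

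Single loops were tested with edgeR's quasi-likelihood test over the whole table (27570 loops past the minimum, Benjamini-Hochberg adjusted p under 0.05). At 72 h against 0 h, 547 of the 2242 tested members gained contacts (24.4%) and 31 lost them (1.38%), where 14.8% of all tested loops gained and 16.1% lost. Their median log2 fold change was 0.36, against 0.02 over all tested loops. At 72 h against 6 h, 306 members gained (13.6%, against 9.12% of all) and 40 lost (1.78%, against 9.13%), with a median of 0.25. At 6 h against 0 h, 38 gained (1.69%, against 1.96%) and 8 lost (0.357%, against 3.67%), with a median of 0.12, so the share that gained at 6 h was near that of all loops. The 46 calls at 6 h went down to 14 without 0 h replicate 1, 21 without 0 h replicate 3, 28 without 6 h replicate 1 and 18 without 6 h replicate 2, and the 346 calls at 72 h against 6 h to 211 without 6 h replicate 1. With no filter, 672 of all 5328 members gained (12.6%, against 11.5% of all 33914 loops) and 49 lost (0.920%, against 14.7%) at 72 h against 0 h. At 72 h against 6 h 321 gained (6.02%, against 6.71%) and 62 lost (1.16%, against 7.98%), and at 6 h against 0 h 53 gained (0.995%, against 1.34%) and 8 lost (0.150%, against 3.20%). The members' share of gains was thus near that of all loops without the filter, and their share of losses below it. Among the 3086 members under the minimum, the fit with no filter called 209 gained and 16 lost at 72 h against 0 h, where 11.5% of all 33914 loops gained and 14.7% lost. The shares among all loops under the minimum were not computed. Counts were also simulated with 27170 of the 27570 loops unchanged and 1 common spread. A 1.5-fold change at 72 h was called there in 7.0% of tested members and 38.0% of other tested loops. A 2-fold change was called in 45.0% and 85.0%. Only 185 loops were called in the simulation, against 8519 in the data, so its adjusted threshold was stricter. These percentages are thus not the sensitivity in the data, and only their order between members and other loops is used. Shares of calls among members and among all loops, here and with the length correction below, were therefore not read at equal sensitivity.

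Each library was also corrected for its own relation between contacts and length. With the correction 122 members gained (5.44%, against 12.1% of all tested loops) and 137 lost (6.11%, against 14.1%) at 72 h against 0 h. At 72 h against 6 h 82 gained (3.66%, against 8.21%) and 112 lost (5.00%, against 8.93%), and at 6 h against 0 h 7 gained (0.312%, against 1.43%) and 12 lost (0.535%, against 1.87%). The correction sets the middle of each length near 0 by construction, so the members' medians of 0.02, 0.01 and 0.01 and the evened balance of gains and losses follow from it, and its values only compare a loop with loops of like length. All 122 gains at 72 h were among the 547, all 31 losses remained, and 106 of the 137 losses appeared only with the correction. A single loop, loop27508, was gained without the correction and lost with it. Changes below are against the library as a whole unless they are given as relative to loops of like length.

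The direction of single loops at 72 h was compared between the 2 sets of replicates, which share no library. Over 1948 members tested in both, 253 gained at 72 h against 0 h in replicates 1 and 2 alone, and 241 of them had a fold change above 0 in replicates 3 and 4, where 74.7% of all 1948 did. Of the 21 lost in replicates 1 and 2, 15 were below 0 in replicates 3 and 4, where 25.3% of all were. The other way round, 151 gained in replicates 3 and 4, of which 140 were above 0 in replicates 1 and 2 (74.7% of all were). Of 10 lost there, 9 were below 0 in replicates 1 and 2 (25.3% of all were). At 6 h against 0 h 8 gained in replicates 1 and 2, of which 7 were above 0 in replicates 3 and 4 (56.4% of all were), and 5 gained in replicates 3 and 4, of which 3 were above 0 in replicates 1 and 2 (61.8% of all were). The 1 lost in replicates 1 and 2 was below 0 in replicates 3 and 4, where 43.6% of all were. The 2 lost in replicates 3 and 4 gave 0 below 0 in replicates 1 and 2, where 38.2% of all were. Few calls were thus made at 6 h and they were not all of the same direction in the other set.

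The early gains named by rule lay in 3 regions. Here and below, the largest rises and falls were picked among calls whose libraries of the times compared did not overlap. That lack of overlap therefore follows from the choice and is no further support. The minimum of 5 counts per 1000000 was a mean over all 12 libraries, so a loop could pass it through a time at which it stood high. Low values at its other times then follow in part from the filter and the ranking. Of the loops that follow, loop13324, loop18719 and loop3000 were below that minimum at 0 h, and loop3000 also at 72 h. Normalized counts here are contacts per 1000000 contacts in tested loops of a library after TMM scaling, and fold changes are log2 values from edgeR with its adjusted p. The largest rise was that of loop13324 (chr6:13900001-13910000 and chr6:15620001-15630000), a 1720 kb loop that spans RNF182, CD83, a surface protein of activated immune cells, and JARID2, a partner of the Polycomb complex PRC2, and ends over DTNBP1. At 0 h the 4 libraries stood at 3.58, 7.43, 6.24 and 2.23, at 6 h at 15.3, 12.7, 20.8 and 18.9 and at 72 h at 12, 16.5, 21.2 and 11.3 normalized counts. All 6 h and 72 h libraries lay above all 0 h libraries. It rose at 6 h by 1.45 ± 0.29 (SE; adjusted p = 2.9e-04) and stood at 1.33 ± 0.28 (SE; adjusted p = 9.1e-05) at 72 h against 0 h. Loop13327 (chr6:14120001-14130000 and chr6:15620001-15630000) shares the anchor over DTNBP1 and starts over CD83. The libraries, from replicate 1 to 4, held 7.88, 4.65, 11.2 and 14.5 at 0 h, 24.9, 22.8, 19.4 and 26 at 6 h and 17.1, 13.5, 13.1 and 18.2 at 72 h. Its 6 h libraries lay above those of both other times, with a rise at 6 h of 1.20 ± 0.24 (SE; adjusted p = 3.8e-04). Its value at 72 h against 0 h, 0.67 ± 0.25 (SE; adjusted p = 0.032), missed the threshold on leaving out any 1 of 0 h replicates 1 and 2 and 72 h replicates 1 and 4 (adjusted p from 0.081 to 0.17) and with the length correction (0.51). From 6 h to 72 h it stood at -0.53 (adjusted p = 0.073), or -0.85 (adjusted p = 0.0024) relative to loops of like length.

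Loop18719 (chr8:127850001-127860000 and chr8:129570001-129580000) runs from PVT1, a long non-coding RNA gene next to the proto-oncogene MYC, to CCDC26, another long non-coding RNA gene. Untreated cells had 3.58, 2.79, 4.99 and 7.80, cells at 6 h 16.3, 9.11, 18 and 14.2 and cells at 72 h 9.43, 6.77, 3.03 and 6.06 normalized counts in replicates 1 to 4. Every 6 h library lay above every 0 h library, and the 72 h libraries overlapped both. It rose by 1.29 ± 0.30 (SE; adjusted p = 0.0026) at 6 h and fell by 0.93 ± 0.28 (SE; adjusted p = 0.013) from 6 h to 72 h. This fall missed the threshold without 6 h replicate 1 (adjusted p = 0.054) or 72 h replicate 3 (0.060) and within replicates 1 and 2 alone (0.42). Loop3000 (chr1:227490001-227500000 and chr1:228510001-228520000), with 20 protein-coding genes between its anchors, among them WNT9A and WNT3A, signalling ligands, and ARF1, a regulator of vesicle traffic, also stood highest at 6 h on average. By replicate, it counted 4.30, 3.72, 1.25 and 3.34 at 0 h, 13.4, 10, 6.92 and 9.46 at 6 h and 1.71, 7.74, 2.02 and 5.19 at 72 h. It rose at 6 h by 1.20 ± 0.33 (SE; adjusted p = 0.014), a call that ended without 0 h replicate 3 (adjusted p = 0.056), and fell from 6 h to 72 h by 1.00 ± 0.32 (SE; adjusted p = 0.018), a call that ended without 72 h replicate 1 (0.093) or 3 (0.063) and within replicates 1 and 2 alone (0.090). At 72 h against 0 h it stood at 0.20 ± 0.35 (SE; adjusted p = 0.70). Within replicates 1 and 2 alone, loop13324 (0.089) and loop3000 (0.11) missed the threshold at 6 h, and within replicates 3 and 4 alone loop13327 (0.34) and loop18719 (0.22) did.

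The early falls named by rule included a contact between histone gene clusters. Loop13465 (chr6:26030001-26040000 and chr6:27830001-27840000) is 1800 kb long and joins the anchor with the starts of H3C2 and H2AC4 to the anchor with H4C12, H2AC15 and H2BC15, and the promoters of all but H2BC15 are shown above, with 52 protein-coding genes between them. These genes make the core histones that package newly replicated DNA. Replicates 1 to 4 gave 20.1, 16.7, 15 and 13.4 normalized counts at 0 h, 9.57, 6.37, 11.1 and 3.55 at 6 h and 7.71, 11.6, 12.1 and 14.7 at 72 h. Every 6 h library lay below every 0 h library, and the 72 h libraries overlapped those of both other times. The fall at 6 h was -0.98 ± 0.27 (SE; adjusted p = 0.015), and the value at 72 h against 0 h was -0.47 ± 0.24 (SE; adjusted p = 0.12), or -0.95 (adjusted p = 0.0010) relative to loops of like length. Leaving out 0 h replicate 1, 6 h replicate 2 or 6 h replicate 4 ended the call at 6 h (adjusted p from 0.067 to 0.11).

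A pair of falling loops enclosed TOX, a DNA-binding protein of T cell development. Loop17673 (chr8:58660001-58670000 and chr8:60330001-60340000) also encloses CA8, and loop17681 (chr8:58720001-58730000 and chr8:59930001-59940000) lies inside it. Normalized counts of loop17673 were 7.88, 13.9, 9.98 and 11.1 in the 0 h libraries, 0.957, 4.55, 5.54 and 3.55 in those of 6 h and 4.29, 7.74, 3.03 and 4.33 in those of 72 h. Normalized counts of loop17681 were 11.5, 12.1, 16.2 and 14.5 in the 0 h libraries, 4.79, 5.46, 6.92 and 5.91 in those of 6 h and 8.57, 7.74, 9.08 and 13 in those of 72 h. Loop17673 was below the minimum for the tests at 6 h and at 72 h, so it passed through 0 h, where it stood high. In both loops the 4 libraries of 6 h lay below those of 0 h. They fell at 6 h by 1.20 ± 0.33 (SE; adjusted p = 0.014) and by 0.99 ± 0.29 (SE; adjusted p = 0.023), calls that ended for loop17673 without 0 h replicate 2 or 6 h replicate 1 (adjusted p from 0.056 to 0.10) and for loop17681 without 0 h replicate 3, 6 h replicate 1 or 6 h replicate 2 (0.061 to 0.076). At 72 h against 0 h loop17673 stood at -0.88 ± 0.30 (SE; adjusted p = 0.017), or -1.29 (adjusted p = 3.3e-04) relative to loops of like length. That call ended without 0 h replicate 2 or 72 h replicate 3 (0.056 to 0.077) and within replicates 1 and 2 (0.24) or 3 and 4 (0.067) alone. Loop17681 stood at -0.38 ± 0.26 (SE; adjusted p = 0.26), or -0.74 (adjusted p = 0.021) relative to loops of like length. Loop4161 (chr2:144590001-144600000 and chr2:145750001-145760000), in a stretch without a protein-coding gene wholly between its anchors, was lowest at 6 h. At 0 h the 4 libraries stood at 15, 10.2, 13.7 and 14.5, at 6 h at 3.83, 5.46, 8.31 and 8.28 and at 72 h at 17.1, 13.5, 12.1 and 18.2 normalized counts. It fell at 6 h by 0.91 ± 0.29 (SE; adjusted p = 0.036), and the call ended without 0 h replicate 1, 3 or 4 or 6 h replicate 1 or 2 (0.058 to 0.15) and when libraries were scaled to their totals (0.051). From 6 h to 72 h it rose by 1.09 ± 0.28 (SE; adjusted p = 0.0025), though not within replicates 3 and 4 alone (0.24). With replicates 1 and 2 alone or replicates 3 and 4 alone, loop13465, loop17673, loop17681 and loop4161 all missed the threshold at 6 h (adjusted p from 0.069 to 0.21 and from 0.24 to 0.54).

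The largest rises at 72 h against 0 h started from a few contacts and ended at several times as many. The low start follows in part from the choice and is no separate result. The minimum of 5 was a mean over all 12 libraries, and the rises were ranked by fold change. At 0 h the mean normalized count was under 5 in loop16459, loop17880 and loop670, and slightly above 5 in loop3952. The minimum was set on counts relative to a library's total contacts, without TMM scaling. On that scale loop3952 was also under 5 at 0 h. All of these loops thus reached the minimum only through the later times. Loop16459 (chr7:95720001-95730000 and chr7:97020001-97030000) ends in the anchor that holds an end of DLX5, a homeobox factor of limb, bone and forebrain development, and spans its neighbour DLX6. The libraries, from replicate 1 to 4, held 3.58, 3.72, 3.74 and 2.23 at 0 h, 15.3, 9.11, 2.77 and 9.46 at 6 h and 14.6, 24.2, 11.1 and 17.3 at 72 h. All 72 h libraries lay above all 0 h libraries, and at 6 h replicate 3 alone stayed at the 0 h level. It rose at 6 h by 1.13 ± 0.33 (SE; adjusted p = 0.022) and at 72 h by 1.82 ± 0.30 (SE; adjusted p = 2.7e-07), or 1.48 (adjusted p = 4.9e-05) relative to loops of like length. The call at 6 h ended with the length correction (1.05, adjusted p = 0.056), within replicates 1 and 2 (0.056) or 3 and 4 (0.59) alone, and without 0 h replicate 1 or 4 or 6 h replicate 1 (0.062 to 0.20). Loop17880 (chr8:72310001-72320000 and chr8:73660001-73670000), which ends over STAU2, a carrier of messenger RNA, and spans RDH10, an enzyme of retinoic acid synthesis, went from a mean of 2.22 ± 0.53 (SD, n = 3) to 11.8 ± 1.3 (SD, n = 3). Untreated cells had 2.15, 2.79, 1.25 and 2.23, cells at 6 h 5.74, 2.73, 5.54 and 3.55 and cells at 72 h 10.3, 12.6, 11.1 and 13.8 normalized counts in replicates 1 to 4. It rose by 1.76 ± 0.32 (SE; adjusted p = 4.7e-06).

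Loop3952 (chr2:103160001-103170000 and chr2:104940001-104950000) spans POU3F3, a transcription factor of the nervous system and kidney. By replicate, it counted 5.01, 5.58, 6.24 and 3.34 at 0 h, 7.66, 10, 6.92 and 13 at 6 h and 20.6, 22.3, 29.3 and 15.6 at 72 h. The 6 h libraries were already above the 0 h libraries in this loop, and the 72 h libraries above the 6 h libraries. It rose by 1.75 ± 0.26 (SE; adjusted p = 2.6e-08) at 72 h, and its value at 6 h was 0.70 ± 0.31 (SE; adjusted p = 0.18). Loop670 (chr1:58510001-58520000 and chr1:59940001-59950000) spans JUN, a component of the AP-1 transcription factor that PMA is known to induce, along with MYSM1, FGGY and HOOK1. Replicates 1 to 4 gave 5.73, 2.79, 6.24 and 2.23 normalized counts at 0 h, 7.66, 3.64, 9.69 and 16.6 at 6 h and 13.7, 12.6, 23.2 and 23.4 at 72 h. It rose at 72 h by 1.68 ± 0.28 (SE; adjusted p = 7.8e-07), and its 6 h libraries ranged from below the highest 0 h library to the level of the 72 h libraries. The calls of these 4 loops at 72 h against 0 h held with the length correction and on leaving out any 1 library.

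The largest falls at 72 h against 0 h included loops at CCND1 and around GATA1. Loop22036 (chr11:68620001-68630000 and chr11:69650001-69660000) ends in the anchor with an end of CCND1, which codes for cyclin D1, a driver of the G1 phase of the cell cycle. At 0 h the 4 libraries stood at 13.6, 17.7, 12.5 and 10, at 6 h at 11.5, 11.8, 5.54 and 8.28 and at 72 h at 2.57, 6.77, 4.04 and 2.6 normalized counts. It fell by 1.41 ± 0.29 (SE; adjusted p = 6.4e-05), with all 72 h libraries below all 0 h libraries. Loop33180 (chrX:48630001-48640000 and chrX:49840001-49850000) is an X-linked loop across 41 protein-coding genes, among them GATA1, the master transcription factor of red cells and megakaryocytes, and WAS, an actin regulator of blood cells. The libraries, from replicate 1 to 4, held 11.5, 13, 17.5 and 13.4 at 0 h, 5.74, 12.7, 13.8 and 10.6 at 6 h and 3.43, 3.87, 8.07 and 7.79 at 72 h. It fell by 1.00 ± 0.28 (SE; adjusted p = 0.0033), and within replicates 3 and 4 alone the adjusted p was 0.13. Loop18740 (chr8:128660001-128670000 and chr8:129730001-129740000), downstream of MYC and ending over GSDMC, fell by 1.39 ± 0.27 (SE; adjusted p = 1.4e-05). Untreated cells had 15, 26, 20 and 12.3, cells at 6 h 9.57, 11.8, 4.15 and 8.28 and cells at 72 h 4.29, 7.74, 6.06 and 5.19 normalized counts in replicates 1 to 4. Its 6 h libraries were already below its 0 h libraries, a fall of 0.90 ± 0.26 (SE; adjusted p = 0.022) that missed the threshold without 0 h replicate 2 (0.15) or 6 h replicate 3 (0.087) and within each set of replicates alone (0.19 and 0.22). Loop12117 (chr5:108630001-108640000 and chr5:110030001-110040000), which spans FER, a tyrosine kinase, PJA2 and MAN2A1, fell by 1.21 ± 0.34 (SE; adjusted p = 0.0034), with 72 h counts of 2.57, 1.94, 0 and 4.33 against 7.16, 12.1, 6.24 and 5.57 at 0 h, and within replicates 3 and 4 alone the adjusted p was 0.26.

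**Figure D4:**
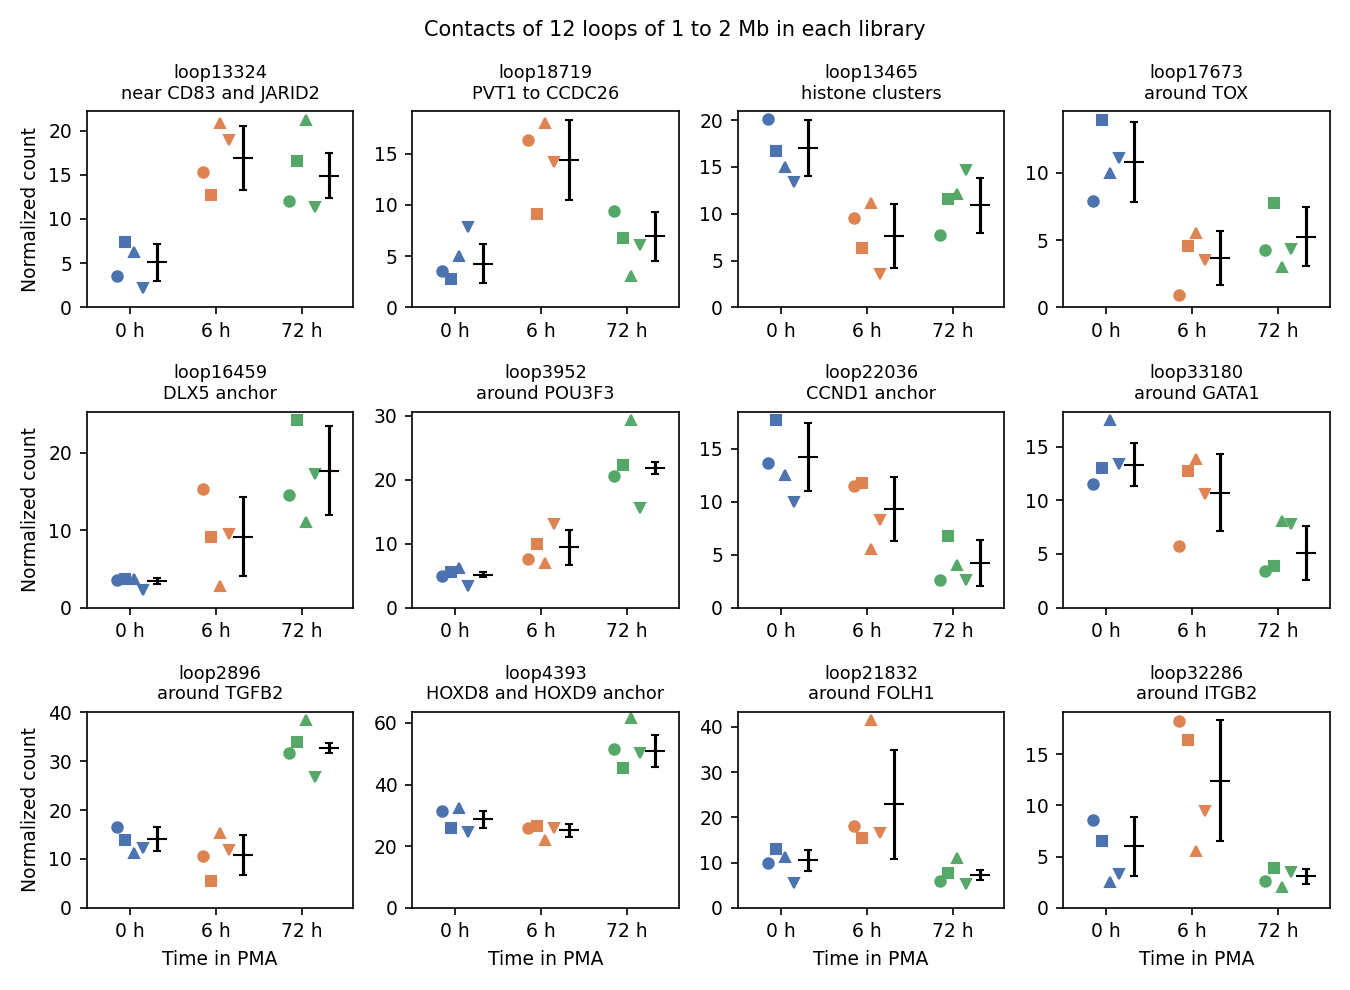
Normalized counts of 12 loops of 1 to 2 Mb in every library, by time in PMA, with a separate count axis from 0 for each loop. Symbols mark replicates 1 to 4 (circle, square, upward and downward triangle) and the black bars give the mean and SD. Loop18719 is high at 6 h and loop13324 at 6 h and 72 h, loop13465 is low at 6 h and loop17673 at 6 h and 72 h. Loop16459, loop3952, loop2896 and loop4393 are high at 72 h, and loop22036 and loop33180 are low at 72 h.

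Between 6 h and 72 h the largest rises were those of loop15706, loop8190, loop2896 and loop645. Loop2896 (chr1:218320001-218330000 and chr1:219810001-219820000) spans TGFB2, a secreted growth factor of the TGF-beta family, and starts over RRP15. By replicate, it counted 16.5, 13.9, 11.2 and 12.3 at 0 h, 10.5, 5.46, 15.2 and 11.8 at 6 h and 31.7, 33.9, 38.4 and 26.8 at 72 h. The 0 h and 6 h libraries overlapped and all 72 h libraries lay above them, with a rise of 1.49 ± 0.22 (SE; adjusted p = 1.1e-07) from 6 h. Loop15706 (chr7:19710001-19720000 and chr7:21250001-21260000) starts at TMEM196 and spans ITGB8, an integrin subunit that activates TGF-beta, with MACC1, ABCB5 and SP8. Replicates 1 to 4 gave 2.87, 5.58, 3.74 and 3.34 normalized counts at 0 h, 2.87, 0, 1.38 and 3.55 at 6 h and 7.71, 9.68, 8.07 and 13.8 at 72 h. It rose by 1.62 ± 0.35 (SE; adjusted p = 2.9e-04) from a mean of 1.95 ± 1.6 (SD, n = 4) at 6 h, where 1 library had no contact. Loop15706 also had a mean of only 3.99 at 0 h, so it passed the minimum of 5 through 72 h alone. Its low start follows in part from that. Loop8190 (chr4:13650001-13660000 and chr4:15390001-15400000), which spans CPEB2, a regulator of translation, and runs from LINC01182 to C1QTNF7, rose by 1.51 ± 0.30 (SE; adjusted p = 7.6e-05), and within replicates 3 and 4 alone the adjusted p was 0.22. Loop645 (chr1:55480001-55490000 and chr1:56590001-56600000), which spans PLPP3, a lipid phosphatase, rose by 1.39 ± 0.26 (SE; adjusted p = 2.2e-05). Loop8190 went from 3.83, 1.82, 6.92 and 5.91 at 6 h to 14.6, 23.2, 10.1 and 15.6 at 72 h, and loop645 from 7.66, 3.64, 6.92 and 11.8 to 21.4, 16.5, 23.2 and 27.7. In both the 72 h libraries lay above all 6 h libraries.

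Of the 4 largest falls between 6 h and 72 h, loop32286, loop4696 and loop21832 had risen at 6 h against 0 h (0.97, 1.10 and 0.97 on the log2 scale, adjusted p = 0.031, 0.021 and 0.0075). With the length correction the rises at 6 h of loop32286 (0.87, adjusted p = 0.083) and loop4696 (1.01, adjusted p = 0.056) no longer passed, and that of loop21832 did (0.88, adjusted p = 0.029). The rise of loop32286 also ended without 0 h replicate 3 or 4 or 6 h replicate 1 or 2 (adjusted p from 0.10 to 0.19), and that of loop4696 without 0 h replicate 1 or 4 or 6 h replicate 1 or 2 (0.071 to 0.11). Within replicates 1 and 2 alone loop32286 (0.11) and loop21832 (0.49) missed the threshold at 6 h. Loop32286 (chr21:44650001-44660000 and chr21:45740001-45750000) starts at the keratin-associated genes KRTAP12-3 and KRTAP12-4 and spans ITGB2, the shared beta chain of the leukocyte integrins, and COL18A1, a basement membrane collagen. At 0 h the 4 libraries stood at 8.60, 6.50, 2.49 and 3.34, at 6 h at 18.2, 16.4, 5.54 and 9.46 and at 72 h at 2.57, 3.87, 2.02 and 3.46 normalized counts. It fell by 1.61 ± 0.32 (SE; adjusted p = 7.4e-05), with no overlap between 6 h and 72 h. Loop4696 (chr2:216580001-216590000 and chr2:217700001-217710000), which spans the insulin-like growth factor binding proteins IGFBP2 and IGFBP5, fell by 1.39 ± 0.33 (SE; adjusted p = 8.9e-04), from 6 h counts of 14.4, 12.7, 9.69 and 5.91 to 72 h counts of 0.857, 4.84, 3.03 and 3.46. Its means of 4.15 at 0 h and 2.98 at 72 h were under 5, so it passed the minimum through 6 h alone. Its rise and its fall follow in part from that. Loop21832 (chr11:48350001-48360000 and chr11:50020001-50030000), near the centromere of chromosome 11 and spanning FOLH1 and olfactory receptor genes, had a single high library at 6 h, replicate 3. The libraries, from replicate 1 to 4, held 10, 13, 11.2 and 5.57 at 0 h, 18.2, 15.5, 41.5 and 16.6 at 6 h and 6.00, 7.74, 11.1 and 5.19 at 72 h. It fell by 1.34 ± 0.26 (SE; adjusted p = 5.2e-05), a call that held without that replicate, whereas its rise at 6 h ended without it (0.64, adjusted p = 0.17). Loop28570 (chr16:21690001-21700000 and chr16:22770001-22780000) starts over OTOA, a gene of the inner ear, and fell by 1.18 ± 0.27 (SE; adjusted p = 5.8e-04), with an adjusted p of 0.054 within replicates 1 and 2 alone. Its 6 h counts were 13.4, 17.3, 19.4 and 21.3 and its 72 h counts 5.14, 7.74, 6.06 and 7.79. NPIPB4 and NPIPB5, copies of each other, lie between its anchors, and whether repeated sequence affects the counts at the anchors was not examined.

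The members with the most contacts lay in regions where gene families repeat. Loop27508 (chr15:20410001-20420000 and chr15:22290001-22300000), loop27497 (chr15:20350001-20360000 and chr15:22220001-22230000) and loop27502 (chr15:20360001-20370000 and chr15:22260001-22270000) lie side by side on chromosome 15, around GOLGA6L6 and copies of POTEB and OR4N4. The fourth, loop28567 (chr16:21580001-21590000 and chr16:22690001-22700000), spans UQCRC2, EEF2K and the NPIPB4 and NPIPB5 copies of a primate-specific family. Reads from near-identical copies can be placed in either copy. The genes named lie between the anchors, and whether the anchors hold such copies was not examined, so these counts may be uncertain. Normalized counts of loop27508 were 150, 135, 126 and 134 in the 0 h libraries, 155, 146, 141 and 140 in those of 6 h and 170, 168, 153 and 173 in those of 72 h. Normalized counts of loop28567 were 132, 107, 141 and 137 in the 0 h libraries, 117, 108, 151 and 115 in those of 6 h and 100, 98.7, 96.9 and 99.5 in those of 72 h. At 72 h the first rose by 0.27 ± 0.10 (SE; adjusted p = 0.025) and the second fell by 0.37 ± 0.11 (SE; adjusted p = 0.0051), with all 72 h libraries of loop28567 below all 0 h libraries. Loop27497 rose from a mean of 115 ± 3.8 (SD, n = 3) to 200 ± 29 (SD, n = 3), a change of 0.74 ± 0.10 (SE; adjusted p = 1.1e-09), and loop27502 from 85.4 ± 9.8 to 110 ± 6.2, a change of 0.37 ± 0.12 (SE; adjusted p = 0.0088). Relative to loops of like length, the fold changes of loop27508 (-0.29, adjusted p = 0.013) and loop27502 (-0.19, adjusted p = 0.21) turned negative and that of loop27497 no longer passed (0.18, adjusted p = 0.14). The call of loop27508 also ended on leaving out 0 h replicate 2, 3 or 4 or 72 h replicate 1, 2 or 4 (adjusted p from 0.055 to 0.10), and that of loop27502 without 0 h replicate 1 (0.053). Within replicates 1 and 2 alone loop27508 (0.29), loop27502 (0.17) and loop28567 (0.21) missed the threshold, and within replicates 3 and 4 alone loop27508 (0.066) and loop27502 (0.050) did.

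Few of these long loops ended at genes. An end of a protein-coding gene lay in 7.53% of the 8846 distinct member anchors, against 12.5% for loops of 0.5 to 1 Mb, 21.5% for loops under 0.5 Mb and 6.34% for loops of 2 Mb or more. In 4582 members (86.0%) no anchor held one, in 691 (13.0%) 1 did and in 55 (1.03%) both did. The median member enclosed 1 whole protein-coding gene and 1691 members enclosed none. The share of contacts of the members with no gene end at 72 h was 1.43 times that at 0 h, that of members with 1 such anchor 1.39 times and that of the 55 with gene ends in both anchors 1.15 times. These 3 groups differ in depth, with median mean counts of 4.25, 6.33 and 7.50, and the difference between them was not tested.

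Of 8 gene lists, that of the developmental regulators was the longest and had the most members at its genes. This number is not corrected for the length of the list. In all, 12 members ended at 10 of 101 homeobox, T-box and related genes, such as DLX5, HOXD8, HOXD13, SOX9 and IRX5, which pattern tissues of the embryo. Of the 11 tested, 7 gained and 0 lost at 72 h against 0 h (14.8% and 16.1% of all tested loops did, and 24.4% and 1.38% of tested members), 1 gained at 6 h, and their median log2 fold change at 72 h was 0.70, against 0.36 over all tested members and 0.02 over all loops. With the length correction 2 of the 11 gained and 0 lost. In the fit restricted to a mean of at least 10 counts per 1000000, 278 of 718 members gained. Some members on the list share an anchor, such as loop16459 and loop16460 at DLX5, and the difference from other members was not tested. Summed over all 12, contacts per 1000000 went from 141 at 0 h to 162 at 6 h and 230 at 72 h.

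At the HOXD cluster, whose factors set position along the limbs and body axis, loop4393 (chr2:176120001-176130000 and chr2:177140001-177150000) starts at HOXD8 and HOXD9. Untreated cells had 31.5, 26, 32.4 and 24.5, cells at 6 h 25.8, 26.4, 22.1 and 26 and cells at 72 h 51.4, 45.5, 61.6 and 50.2 normalized counts in replicates 1 to 4. The 0 h and 6 h libraries overlapped and all 72 h libraries lay above them. It rose by 0.81 ± 0.16 (SE; adjusted p = 1.6e-05), and by 0.48 (adjusted p = 0.016) relative to loops of like length. Loop4378 (chr2:174750001-174760000 and chr2:176090001-176100000) reaches the cluster from the other side and ends at HOXD12 and HOXD13. By replicate, it counted 10.7, 11.2, 6.24 and 10 at 0 h, 12.4, 7.28, 15.2 and 9.46 at 6 h and 14.6, 14.5, 23.2 and 22.5 at 72 h. It rose by 0.81 ± 0.24 (SE; adjusted p = 0.0061), with all 72 h libraries above all 0 h libraries, but not relative to loops of like length, 0.41 (adjusted p = 0.21), nor within replicates 1 and 2 alone (adjusted p = 0.51).

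The DLX5 anchor carried a second member, loop16460 (chr7:95910001-95920000 and chr7:97020001-97030000), which is 1110 kb long and starts further in, over DYNC1I1. Replicates 1 to 4 gave 36.5, 28.8, 28.7 and 30.1 normalized counts at 0 h, 24.9, 42.8, 42.9 and 31.9 at 6 h and 42.9, 52.3, 38.4 and 45.9 at 72 h. It rose at 72 h by 0.48 ± 0.16 (SE; adjusted p = 0.015), where loop16459 rose by 1.82. The call ended without 72 h replicate 2 (adjusted p = 0.072), with the length correction (0.63), and within replicates 1 and 2 (0.094) or 3 and 4 (0.15) alone. Both share an anchor and the same libraries, and the difference between them was not tested.

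The haematopoietic factors MYC and MEF2C carried 4 members. MYC, a driver of growth and proliferation, shared 1 anchor (chr8:127730001-127740000) among loop18713, loop18714 and loop18715, which reach 1570, 1830 and 1950 kb downstream. Normalized counts of loop18714 were 26.5, 16.7, 21.2 and 20.1 in the 0 h libraries, 24.9, 23.7, 33.2 and 34.3 in those of 6 h and 24, 15.5, 22.2 and 10.4 in those of 72 h. Normalized counts of loop18715 were 39.4, 31.6, 34.9 and 34.6 in the 0 h libraries, 25.8, 31, 36 and 47.3 in those of 6 h and 37.7, 29, 45.4 and 44.1 in those of 72 h. None of the 3 passed the test at 72 h against 0 h (log2 fold changes of 0.67, -0.24 and 0.14, adjusted p = 0.051, 0.41 and 0.56). Relative to loops of like length loop18714 fell by 0.74 (adjusted p = 0.0044), and it also fell from 6 h to 72 h, by 0.61 ± 0.21 (SE; adjusted p = 0.026). That fall ended without 6 h replicate 3 or 4 or 72 h replicate 2 or 4 (0.069 to 0.17) and within replicates 1 and 2 alone (0.61). Loop11732 (chr5:88710001-88720000 and chr5:90260001-90270000), at MEF2C, a factor of megakaryocytes, muscle and neurons, rose at 72 h by 0.86 ± 0.23 (SE; adjusted p = 0.0021), from 0 h counts of 11.5, 10.2, 11.2 and 8.92 to 72 h counts of 18, 20.3, 23.2 and 21.6. Relative to loops of like length its value was 0.42 (adjusted p = 0.18), and within replicates 1 and 2 alone the adjusted p was 0.11.

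**Figure D5:**
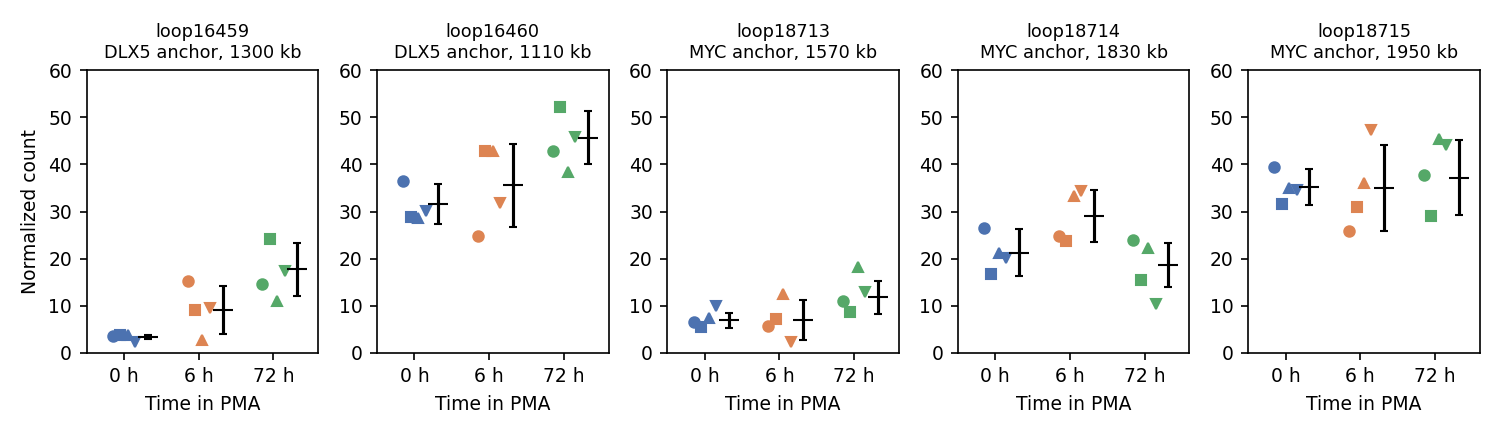
Normalized counts of 2 loops that share the DLX5 anchor and 3 that share the MYC anchor, in every library by time in PMA, on 1 common axis. Symbols mark replicates 1 to 4 and the black bars give the mean and SD. The shorter DLX5 loop has a 0 h mean of 31.6 and the longer one of 3.43, and among the MYC loops the 1830 kb loop has its highest mean, 29.0, at 6 h while the 1950 kb loop stays between 25.8 and 47.3.

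The other lists had few members. Among 46 integrin, matrix and adhesion genes, 7 lay at 8 members, of which 5 were tested and 3 gained at 72 h (24.4% of tested members and 14.8% of all tested loops did): loop20262 at NRP1, a co-receptor of semaphorins and VEGF (0.87 ± 0.29 SE, adjusted p = 0.014), loop4602 at NRP2, its relative (0.61 ± 0.22 SE, adjusted p = 0.022), and loop16420 at COL1A2, a chain of type I collagen (0.72 ± 0.29 SE, adjusted p = 0.046). Loop2811 at PLXNA2, a semaphorin receptor, had 0.53 ± 0.25 (SE; adjusted p = 0.10). With the length correction 0 of the 5 passed. Leaving out single libraries ended the calls of loop20262 (0 h replicate 2 or 72 h replicate 1, adjusted p from 0.079 to 0.10), of loop4602 (0 h replicate 1 or 2 or 72 h replicate 2 or 4, 0.053 to 0.081) and of loop16420 (0 h replicate 1, 2 or 4, 6 h replicate 1, or 72 h replicate 1, 3 or 4, 0.050 to 0.18). Within replicates 1 and 2 alone loop4602 (0.14) and loop16420 (0.090) missed the threshold, and within replicates 3 and 4 alone loop20262 (0.38), loop4602 (0.21) and loop16420 (0.47) did.

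Of 18 cohesin and loop extrusion genes, RAD21 and SMC3, subunits of the cohesin ring, lay at 3 members, of which 1 was tested: loop20977 at SMC3 rose at 72 h by 1.06 ± 0.31 (SE; adjusted p = 0.0049), but was at 0.68 (adjusted p = 0.094) relative to loops of like length and had an adjusted p of 0.28 within replicates 1 and 2 alone. Its means of 3.92 at 0 h and 4.99 at 6 h were under 5, so it passed the minimum through 72 h alone. Of 29 erythroid genes, 3 lay at 3 members. The 2 tested, loop10060 at GYPE and loop10061 at GYPB, glycophorins of the red cell surface that are near-identical copies of each other, had log2 fold changes of -0.13 and 0.52 at 72 h (adjusted p = 0.79 and 0.21), and the loop at BCL11A, a repressor of fetal globin, was under the minimum. Of 27 genes of the protein kinase C and MAP kinase pathway, RASGRP3, an activator of Ras proteins that binds phorbol esters, lay at 1 member under the minimum. None of 28 megakaryocyte and platelet genes lay at a member.

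Anchors were mostly used by a single member: 7453 of 8846 (84.3%) carried 1, 22 carried 5 or more, and the most was 8. That anchor, chr1:72850001-72860000 in the long non-coding gene LINC02797, carried members too thin to test, whose summed contacts per 1000000 averaged 22.2 ± 6.4 in untreated samples (SD, n = 3), 25.0 ± 2.4 after 6 h (SD, n = 4) and 34.5 ± 1.8 after 72 h (SD, n = 3). The next, chr3:68870001-68880000 over TAFA4, a secreted neuropeptide-like protein gene, carried 7 tested members. Their contacts went from 49.6 ± 13 to 55.2 ± 15 to 73.0 ± 7.4 and 2 of them gained at 72 h. The third, chr7:19660001-19670000, carried 6, with 34.6 ± 4.5, 34.1 ± 9.2 and 56.0 ± 5.6, and 2 of its 5 tested members gained. Of all tested members 24.4% gained at 72 h, and of all tested loops 14.8%. With the length correction 0 members of these anchors passed.

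Over all members, 1013 (19.0%) shared both anchors with loops shorter than 1 Mb, 2091 (39.2%) shared 1 and 2224 (41.7%) shared none. Their summed share of contacts at 72 h was 1.43, 1.42 and 1.38 times that at 0 h. Tested members that met at an anchor formed 834 pairs. In 100 pairs both gained at 72 h, in 0 both lost, and in 3 the directions were opposite. In 338 pairs 1 member was called and in 393 neither was. Of all tested members 24.4% gained and 1.38% lost, so pairs with a loss are few whether or not an anchor is shared. With the length correction 6 pairs both gained, 16 both lost, 2 were opposite, 145 had 1 call and 665 had none, where 5.44% of tested members gained and 6.11% lost. Agreement within pairs was not tested. The shorter loops at the anchors of the 547 gained members, 1037 in number, gained in 21.4% and lost in 6.75% of cases, against 18.5% and 8.67% of the 2654 shorter loops at anchors of members that did not pass, and 13.8% and 17.6% of all 25000 tested loops under 1 Mb. With the length correction the shares that gained were 14.1%, 13.5% and 12.8% in the same order, and the shares that lost 7.33%, 9.68% and 14.9%. Loops at shared anchors share pixels' rows and libraries, and these shares are descriptions.

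At the edges of the length rule the values ran on without a step. The 183 loops of 980 to 990 kb had a median of 6.83 contacts and a median log2 fold change of 0.31 at 72 h over 125 tested loops. The 185 members in the first 2 steps of 10 kb from 1 Mb up had 6.25 and 0.26 over 107. At the upper edge the 59 members in the last 2 steps below 2 Mb had 3.00 contacts and 0.69 over 12 tested loops, and the 53 loops in the first 2 steps from 2 Mb up had 2.75 and 0.70 over 7.

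In the authors' deposited table, 37 of the 5328 members were classed as gained, 0 as lost and 5291 as static, and only 343 carried a fold change. All 37 were tested here and gained at 72 h against 0 h, 1 of them also at 6 h, and 18 of them passed with the length correction. Among the loops named above, the authors' deposited table classed loop2896, loop4393, loop13327 and loop27497 as gained, with log2 fold changes of 1.12, 0.80, 0.39 and 0.77 at 72 h and, for loop13327, 1.13 at 6 h. Of the other named loops that carried a fold change there and were called at 72 h against 0 h here, the authors' deposited table classed loop28567, lost here, and loop4602, loop11732, loop16460, loop27502 and loop27508, gained here, as static.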

How the data were processed

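The authors deposited raw contact counts of 33914 loops in 30 columns, per the file headers, with log2 fold changes, adjusted p-values and a class. The submitters' processing notes name hg38, Juicer 1.5.6 and DESeq2, and the loop caller is not given in the sources used here. Anchor positions, the other numbers of the table, start from 0 and are given here from 1. Technical replicates were summed to 12 libraries, and 0 columns of counts were left unused.

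Loops with a mean of at least 5 counts per 1000000 entered edgeR 4.0.16 (R 4.3.3; TMM, quasi-likelihood test, prior count 2, all 12 libraries, Benjamini-Hochberg threshold 0.05), tested on simulated data. The length correction is an offset per library from a loess curve (span 0.3) on log10 length. Whole-library values had two-sided exact permutation tests. Alternatives were DESeq2 1.42.0, other filters, scalings and thresholds, a replicate block, a batch term, each set of replicates alone and leaving out each library. The members and gene lists were chosen with earlier results of these data known. Named loops were, per comparison, the 4 largest rises and 4 largest falls past the threshold without overlap between libraries, the 4 with most contacts, and up to 4 per gene list with the smallest p at 72 h against 0 h. SDs of thin counts include counting error. The result of 1 gene list is not reported here.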

Additional observations from a re-analysis of the deposited data

Results flagged for a closer look

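In groups of 4 samples, which here are the 6 h samples, a sample far from the other 3 was looked for in each named loop and in both whole-library measures. It was found in 3 of 45 groups, where chance gives about 2.25. In loop21832 on chromosome 11, 6 h replicate 3 had a normalized count of 41.5 and the other 3 libraries had 18.2, 15.5 and 16.6. In loop12117, which spans FER, 6 h replicate 3 had 13.8 and the others 4.79, 4.55 and 5.91. In loop4393 at HOXD8, 6 h replicate 3 was the lowest with 22.1, below 25.8, 26.4 and 26.0.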

How the results depend on the processing

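Gained and lost loops of 1 to 2 Mb numbered 46 at 6 h against 0 h, 578 at 72 h against 0 h and 346 at 72 h against 6 h. In the same order there were 19, 259 and 194 with the length correction, 24, 290 and 197 with a mean of at least 10 counts per 1000000, and 6, 308 and 127 at an adjusted p under 0.01. DESeq2 called 0, 228 and 67, gave no adjusted p for 2210, 594 and 1457 of the 2242 members, and had 130, 558 and 401 at an unadjusted p under 0.05, against 265, 822 and 649 with edgeR. Replicates 1 and 2 alone gave 11, 311 and 147, and replicates 3 and 4 alone 8, 173 and 69. With replicates 3 and 4 summed at 72 h there were 43, 535 and 313. Summed at every time, a fit chosen after seeing the data, there were 39, 528 and 305. That fit ended calls at 72 h against 0 h such as those of loop16420 (adjusted p = 0.053) and loop27508 (0.066). Leaving out 1 library gave 14 to 48, 394 to 585 and 211 to 354. With replicates 3 and 4 as 2 samples at every time, an alternative chosen after seeing the data, the share differed by 0.44, 1.13 and 0.70 percentage points and the log2 ratio to 0.5 to 1 Mb loops by 0.27 at 72 h against 0 h and 0.22 at 72 h against 6 h, with exact permutation p = 0.0286. With only the 72 h pair split, 72 h against 6 h gave 0.70 and 0.22, also past 0.05. Loop27502 and loop27508 reversed with the length correction, to -0.19 and -0.29 at 72 h against 0 h.

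With the replicate number as a replicate block the counts were 58, 590 and 371, and no named call was lost. Same-numbered libraries correlated between 0.0123 and 0.110 in their deviations, over 0.1 in 1 of 12 pairs, so the numbers were not taken to pair the samples. Of 44 named results past the threshold, 15 stayed past it under every alternative that gave them an adjusted p. DESeq2 gave one for only 27 of the 44. Those 15 include results without one from DESeq2: loop4696, loop15706 and loop32286 at 72 h against 6 h and loop17880 at 72 h against 0 h. The length correction ended 12 of the 44 and DESeq2 7 of 27. Replicates 1 and 2 alone ended 18 of 42, replicates 3 and 4 alone 20 of 41, and leaving out some library 14. Low depth, a median of 4.5 contacts per member and library, limits what single loops can show, and 3086 members were too thin for the main test.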
